A study of Rattus norvegicus with 24 samples.

Results

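Of the 15273 genes in the transcript table, 9 that encode heat shock chaperones of the HSP70, HSP110, HSP90 and DnaJ families, with the mitochondrial HSP60, were followed in rat muscle during resistance training. They were Dnajb1, Dnaja1 and Dnajb5 (DnaJ proteins), Hsp90aa1 and Hsp90ab1 (HSP90), Hspa8 (HSP70), Hspa4 and Hsph1 (HSP110), and Hspd1 (HSP60). HSP60 is a chaperonin and belongs to none of the other families named. All rows of the table that carry one of these gene symbols were summed per gene, and all 9 genes passed the filter on low values, which asked for 3 or more samples with a value of 1 or above.

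The animals were 12 adult male Wistar rats, of which 3 each had trained for 2, 10, 20 or 30 days. An implanted pulse generator made the left tibialis anterior, a fast muscle at the front of the shin, work against resistance in daily bouts, and the muscles were taken an hour after the last bout. The unstimulated right tibialis anterior of the same rat was its contralateral control, so trained and control muscle shared genotype, age and housing. They did not share surgery, since the paper describes electrodes placed through an incision in the left hind limb before training. The operated side is always the trained side, and time since surgery grows with days of training. Neither can be told apart from training. No muscle from a rat without training is among the 24 samples used here. The 12 contralateral muscles formed 1 control group, which all 4 comparisons share, and each trained group held 3 muscles. Every trained muscle had been stimulated an hour earlier, so the response to the last bout and the accumulated effect of training cannot be told apart.

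HSP70 proteins bind exposed hydrophobic stretches of unfolded proteins in cycles of ATP hydrolysis. DnaJ proteins (HSP40) bring clients to HSP70 and stimulate its ATPase, HSP110 proteins act as nucleotide exchange factors that reset it, and HSP90 takes over clients such as kinases, steroid receptors and, in muscle, myosin. Many of these genes are transcribed by the heat shock factor HSF1, which is released from chaperones when unfolded proteins accumulate and binds inverted repeats of GAA in promoters. Contracting muscle is a known setting of this response, since heat, oxidants and mechanical load all unfold proteins.

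Levels below are TPM-type values, which are scaled for transcript length, rescaled between samples by median-of-ratios factors. Differences are on the scale of log2(value + 1), on which the change of a low gene is understated, and were tested with limma with Benjamini-Hochberg adjustment over 11196 genes and a threshold of 0.05. The factors lay between 0.778 and 1.14. Without them the median of all genes at 30 days moved from -0.01 to -0.18, and of the genes called at that time 20.0% instead of 54.0% were higher (74.5% instead of 53.4% at 2 days and 75.5% instead of 53.9% at 10 days). Mitochondrially encoded mRNA took 27.8% to 43.7% of a control library, with a median of 31.0%, and 39.9% to 43.9% in the 30-day trained muscles. One control library, replicate 1 of the 30-day animals, held the highest share and the lowest factor, and results that change without it are given with that value. Of 10 skeletal muscle markers 9 are in the table, none with a group mean below 1, and 3, 5, 5 and 4 of them were lower and 0, 2, 0 and 0 higher at 2, 10, 20 and 30 days. Of 8 macrophage markers 6, 7, 8 and 8 were higher at 2, 10, 20 and 30 days (summed value 9.41 to 26.4 in controls and 26.6 to 71.2 in trained muscles, with the mean of Adgre1 below 1 in controls and at 2 and 10 days, and those of Cd68 and Cd163 below 1 in controls). Of 5 fibroblast markers 4 were higher at 2 days and 5 later (summed value 74.6 to 253 in controls and 301 to 982 in trained muscles). In whole muscle, fewer cells of a type and less RNA per cell cannot be told apart, and the part of these marker changes in the results below was not tested.

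Promoters were read from RefSeq on the rat assembly GRCr8 for 8 of the 9 genes. Hsp90aa1 had no entry. Each window ran from 250 bases before to 50 bases after the annotated start and was searched for paired heat shock units, GAANNTTC and TTCNNGAA. Each of these is its own reverse complement, so a match stands on both strands. GAANNTTC occurred in 8.59% and TTCNNGAA in 8.77% of all 33469 windows, and at least one of them in 15.9%. A run of 3 units on either strand, in which GAANNTTC and TTCNNGAA share 3 bases, occurred in 0.798%. Matches are shown for each of the 8 genes that held one. Capitals mark the matched units, and positions count from the start.
Dnajb1, chr19:41431142-41431172, minus strand, -31 to -1: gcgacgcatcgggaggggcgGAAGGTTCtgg
Dnajb1, chr19:41431108-41431133, minus strand, 9 to 34: cgggatctgGAAGCTTCcgccggacg
Dnaja1, chr5:60638203-60638250, plus strand, -201 to -154: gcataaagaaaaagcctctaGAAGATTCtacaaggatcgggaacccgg
Dnaja1, chr5:60638407-60638431, plus strand, 4 to 28: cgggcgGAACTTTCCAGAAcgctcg
Hsph1, chr12:10427243-10427290, plus strand, -125 to -78: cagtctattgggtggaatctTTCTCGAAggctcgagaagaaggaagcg
Hsph1, chr12:10427312-10427364, plus strand, -56 to -4: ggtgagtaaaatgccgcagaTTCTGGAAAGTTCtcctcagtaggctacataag
Hspd1, chr9:64084242-64084287, minus strand, -250 to -205: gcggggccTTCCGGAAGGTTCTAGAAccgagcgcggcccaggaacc
Hspa8, chr8:50080281-50080333, plus strand, -233 to -181: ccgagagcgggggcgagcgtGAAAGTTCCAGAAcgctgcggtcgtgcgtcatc
Hspa8, chr8:50080439-50080491, plus strand, -75 to -23: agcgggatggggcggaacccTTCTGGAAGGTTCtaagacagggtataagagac

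Dnajb1 held 2 paired matches and no run of 3 units. Dnaja1, Hsph1, Hspd1 and Hspa8 held at least 1 run of 3 units. The Hspd1 site also lies before the start of Hspe1, the HSP10 gene that is read in the opposite direction from the same interval, at positions -65 to -48 of that gene. Hspa4, Hsp90ab1 and Dnajb5 had no match in this window, which says only that these letters are not there. Of the genes with a match, Dnajb1 and Dnaja1 rose in the trained muscles, and Hsph1, Hspd1 and Hspa8 were not called at any time in the main fit. Under some alternatives, such as limma with a block for the animal, Hspd1 was lower at 10 days (log2 difference -0.39, adjusted p = 0.0324). The Hspa8 row had a control mean of 0.556, near the pseudocount of 1, so it says little about that gene. Dnajb5, which had no match, was higher after 2 and 10 days. Whether any of these sites acts in these muscles was not tested.

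After 2 days of training 4 of the 9 genes were higher and none was lower, where 15.4% of all tested genes were higher and 13.5% lower. The same 4 genes, Dnajb1, Hsp90aa1, Dnaja1 and Dnajb5, were higher after 10 days (15.6% of all genes higher, 13.3% lower). After 20 and 30 days 3 of 9 were higher, Dnajb1, Hsp90aa1 and Dnaja1, and none was lower (11.7% and 11.1% of all genes higher, 9.64% and 9.46% lower). These 3 genes passed at all 4 times, as did 5.24% of tested genes. The median log2 difference of the 9 genes was 0.15, 0.04, -0.01 and 0.05 at the 4 times. Over all genes it was -0.01, -0.03, -0.03 and -0.01. The median of the 9 genes at 2 days is the value of the Hspa8 row, which lay near the pseudocount in every muscle. All 3 trained muscles lay above all 12 controls for 3, 3, 2 and 2 genes at the 4 times (8.57%, 10.0%, 8.23% and 7.48% of all tested genes).

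**Figure D1:**
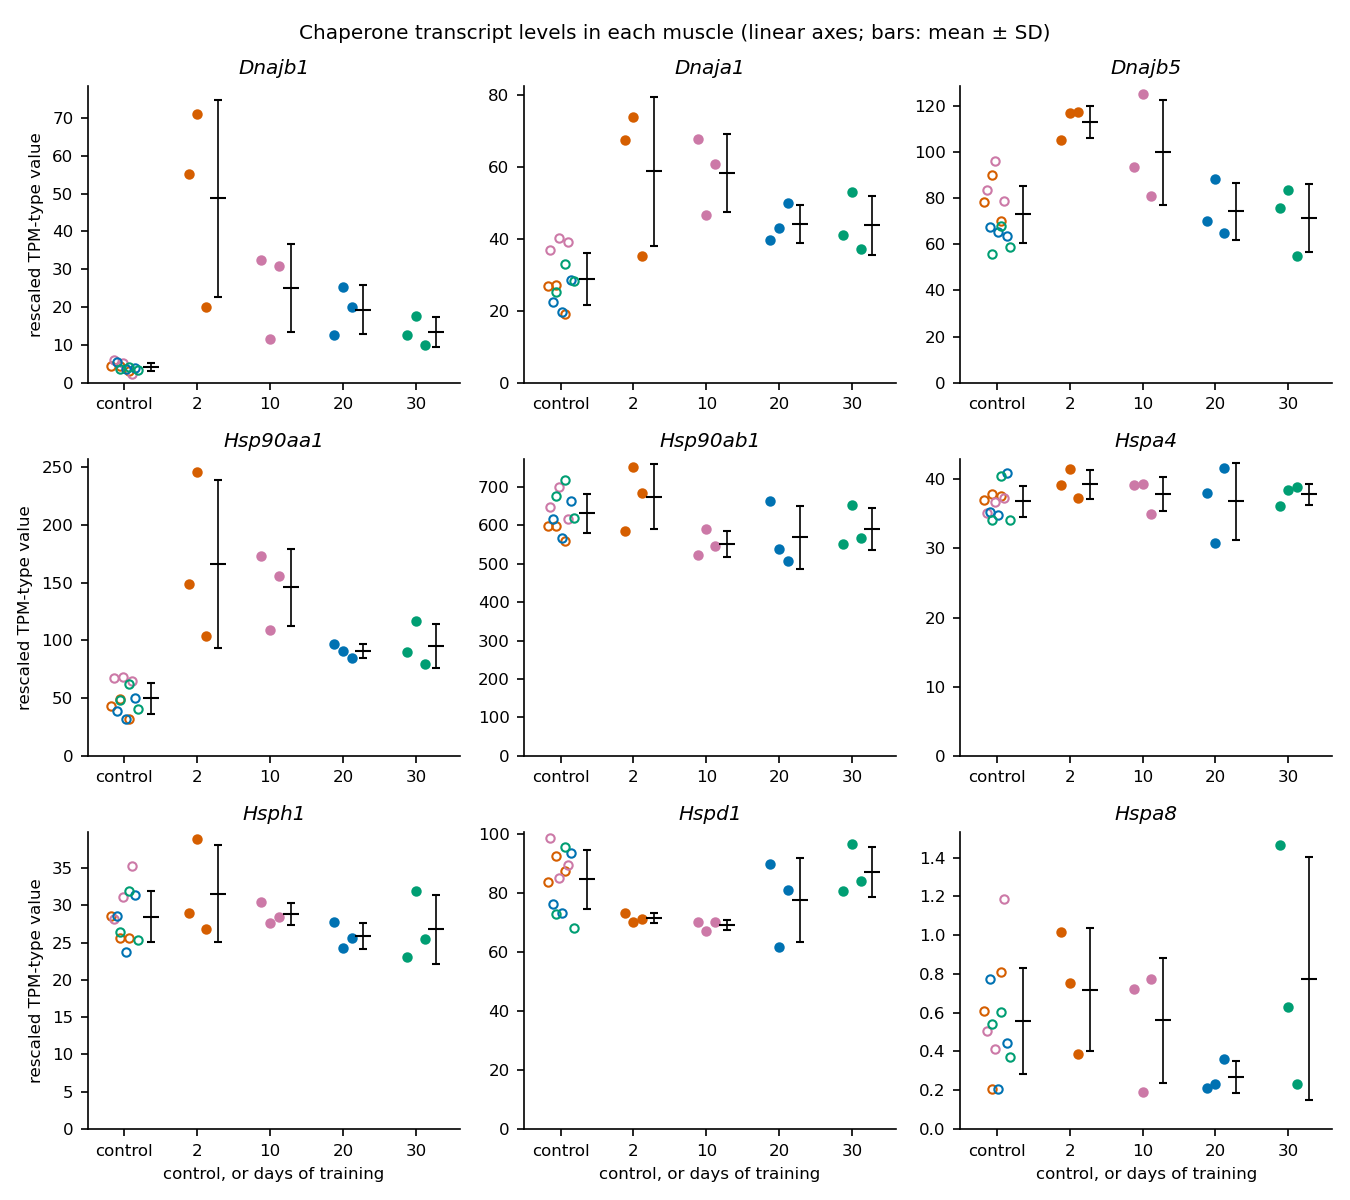
Level of each of the 9 genes in every muscle, as rescaled TPM-type values on linear axes from 0. Open circles are the 12 contralateral muscles and filled circles the 3 trained muscles per time, coloured by day (orange 2, pink 10, blue 20, green 30), and bars give the mean ± SD. For Dnajb1 and Hsp90aa1 each trained muscle lies above each control, whereas Hsp90ab1, Hspa4, Hsph1 and Hspa8 overlap at every time.

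Dnajb1 encodes the main inducible DnaJ partner of HSP70 in the cytosol (chromosome 19 from 24747178 to 24750920 in Rnor_6.0, the build of the files). In the 12 control muscles its value ran from 2.40 to 5.94 with a median of 3.98. The trained muscles read 55.3, 71.0 and 20.1 after 2 days and 32.6, 11.6 and 30.8 after 10 days. They read 12.7, 25.3 and 20.0 after 20 days and 12.6, 17.7 and 9.94 after 30 days. No trained muscle overlapped the controls, and the trained muscles spread widely among themselves, from 20.1 to 71.0 at 2 days alone. The log2 difference was 3.14 at 2 days (standard error 0.29, adjusted p = 2.3e-08), 2.25 after 10 days (adjusted p = 2.97e-06), 1.97 after 20 (adjusted p = 2.88e-05) and 1.49 after 30 (adjusted p = 0.000789), or 8.80-, 4.75-, 3.92- and 2.81-fold on that scale. The trained muscle was above the contralateral muscle of its own animal in 3 of 3 animals at every time, as it was for 26.5%, 25.1%, 24.8% and 22.4% of all tested genes, and within an animal the log2 difference ran from 1.01 to 3.71. Of its 2 transcripts, one carried 98.0% of the gene's value.

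Dnaja1, a farnesylated DnaJ protein that works with HSP70 on newly made and mitochondrial proteins (chromosome 5 from 57028467 to 57039379), had a control value of 28.8 ± 7.15 (SD, n = 12), from 18.9997 to 40.4. The trained muscles read 67.5, 73.8 and 35.2 after 2 days and 67.7, 46.6 and 60.7 after 10 days. After 20 days they read 39.7, 42.9 and 50.01, and after 30 days 41.0, 53.0 and 37.2. All 12 trained muscles exceeded the control median of 27.6, but only at 10 days did all 3 exceed the highest control. The log2 differences were 0.97 (standard error 0.21, adjusted p = 0.00107), 1.01 (0.000669), 0.63 (0.0326) and 0.61 (0.0414) at 2, 10, 20 and 30 days, and the trained muscle was the higher of the pair in 12 of 12 animals. Of all tested genes 26.5%, 25.1%, 24.8% and 22.4% were higher in 3 of 3 animals at these times. The share higher in 12 of 12 was not computed. Against time-matched controls alone the calls at 10 days (0.56, adjusted p = 0.0863) and 30 days (0.58, adjusted p = 0.106) were lost. At 20 days the call was lost without any 1 of the trained muscles (adjusted p = 0.0604, 0.0878 and 0.144 without replicates 1, 2 and 3), and on the values as deposited (0.0610). At 30 days it was lost without any 1 of the trained muscles (0.0853, 0.239 and 0.0610), without control replicates 1 (0.0531) or 3 (0.0550) of 2 days, 1 (0.0568) or 2 (0.0558) of 20 days, or 1 of 30 days (log2 difference 0.59, adjusted p = 0.0514), and on the values as deposited (0.39, adjusted p = 0.206).

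Dnajb5, a close relative of Dnajb1 (chromosome 5 from 58393233 to 58401871), was higher after 2 and 10 days. Controls ran from 55.7 to 96.2 with a median of 69.0. After 2 days the trained muscles read 105, 117 and 117, all above the highest control, a log2 difference of 0.64 (standard error 0.15, adjusted p = 0.00261). After 10 days they read 93.3, 125 and 80.9, of which 2 lay inside the control range, a difference of 0.44 (adjusted p = 0.0322). With a block for the animal, the difference at 10 days was 0.19 (adjusted p = 0.360) and no longer passed, and without trained replicate 1 or 2 the adjusted p was 0.0734 or 0.294. At 20 and 30 days the values lay between 54.9 and 88.2, within or near the control range, with differences of 0.03 and -0.03 (adjusted p = 0.908 and 0.903).

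**Figure D2:**
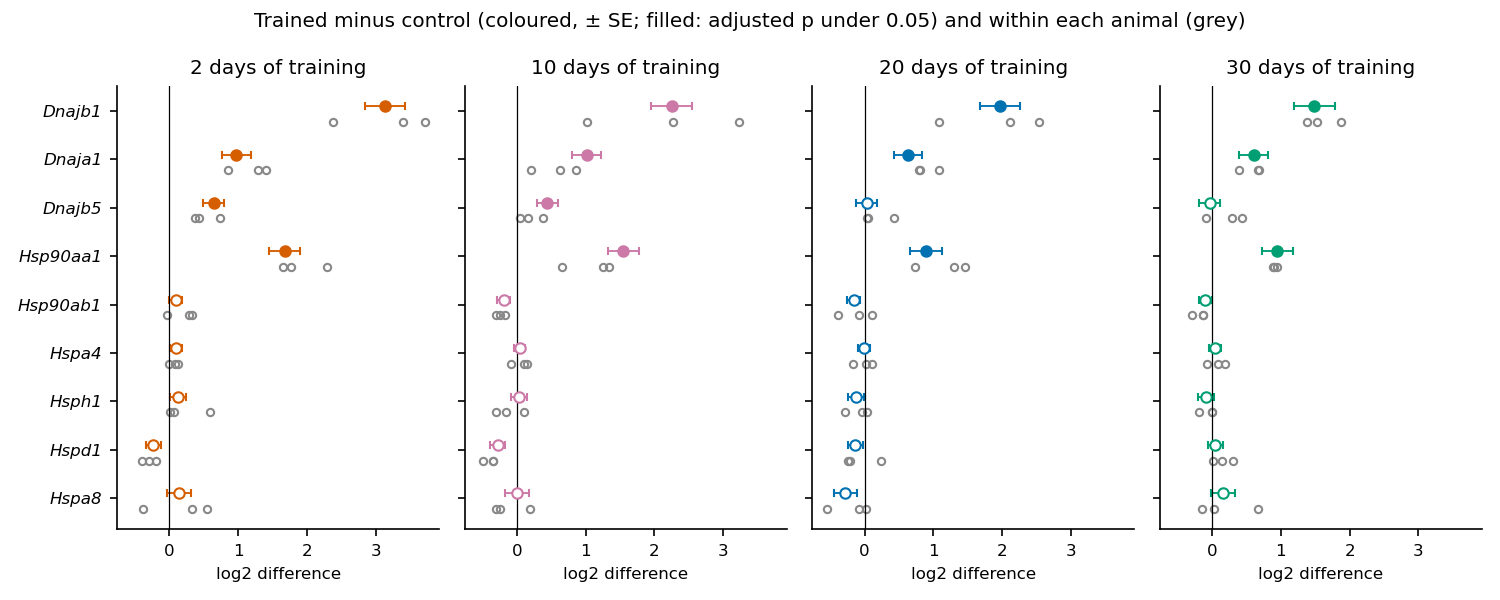
Log2 difference between trained and control muscles for each gene at 2, 10, 20 and 30 days, from the fit over all genes (coloured circles with standard error, filled where the adjusted p is under 0.05), with the difference within each of the 3 animals below it (grey circles). Dnajb1 goes from 3.14 at 2 days to 1.49 at 30 days, Hsp90aa1 from 1.68 to 0.95, and Hspd1, Hsp90ab1, Hspa4, Hsph1 and Hspa8 stay between -0.28 and 0.15 in the fit.

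The 2 cytosolic HSP90 genes differed. Hsp90aa1, the stress-inducible HSP90 alpha that also acts in myosin folding (chromosome 6 from 135107271 to 135112776), ran from 32.0 to 68.5 in controls with a median of 48.8. The trained muscles read 149, 246 and 104 after 2 days, 173, 109 and 156 after 10 days, 96.8, 90.4 and 84.8 after 20 days, and 89.6, 117 and 79.7 after 30 days. Each of these 12 values lay above the highest control. The log2 differences were 1.68 (standard error 0.23, adjusted p = 6.38e-06), 1.55 (1.43e-05), 0.89 (0.00601) and 0.95 (0.00426), or 3.19-, 2.93-, 1.86- and 1.93-fold. Without trained replicate 2 of 30 days the difference there was 0.80 (adjusted p = 0.0528), and together with Dnaja1 this left 1 of 9 genes called at 30 days.

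Hsp90ab1, the constitutive HSP90 beta (chromosome 9 from 17817721 to 17823244), was the most abundant of the 9 genes, from 559 to 717 in controls. The trained muscles read 586, 753 and 685 after 2 days and 522, 589 and 545 after 10 days. They read 662, 537 and 507 after 20 days and 552, 651 and 566 after 30 days. The groups overlapped at 2, 20 and 30 days and at 10 days 1 of 3 trained muscles lay within the control range. The log2 differences were 0.09, -0.19, -0.16 and -0.10 (adjusted p = 0.502, 0.147, 0.278 and 0.518), and the trained muscle was the lower of the pair in 3 of 3 animals at 10 and 30 days. How many of all genes were lower in 3 of 3 animals was not computed. On the values as deposited the difference at 30 days was -0.32 (adjusted p = 0.0185), where the median of all genes had moved to -0.18.

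As a share of the value of both genes, Hsp90aa1 made up 7.24% ± 1.46 (SD, n = 12) in controls, from 5.36% to 9.47%. It made up 19.4% ± 5.79, 20.9% ± 4.80, 13.8% ± 0.93 and 13.8% ± 1.43 (SD, n = 3 each) at 2, 10, 20 and 30 days. The lowest trained muscle, at 12.3%, was above the highest control. The sum of both genes was 681 ± 60.4 in controls and 841 ± 139, 698 ± 2.59, 660 ± 87.9 and 685 ± 71.9 in the trained groups, so that at 10 days and later the groups' sums were within the spread of the controls while the share differed.

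**Figure D3:**
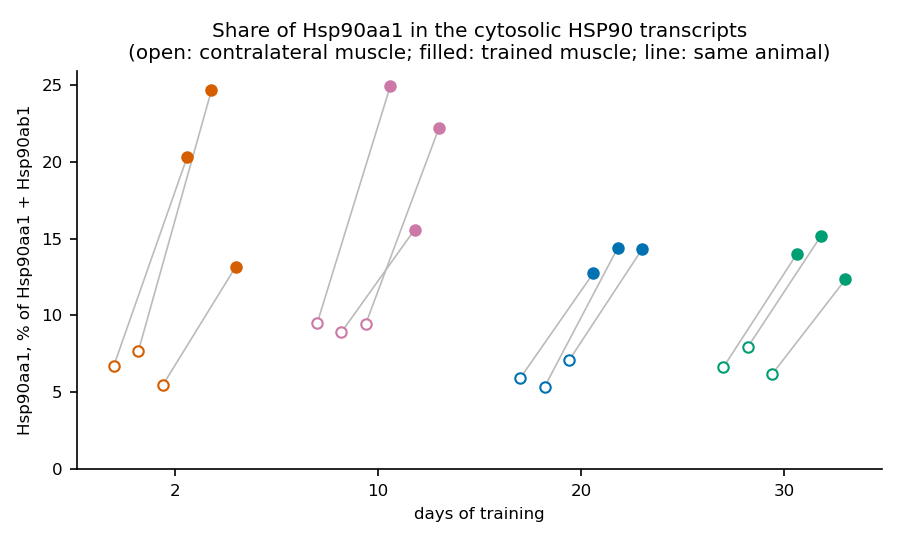
Hsp90aa1 as a percentage of the summed value of Hsp90aa1 and Hsp90ab1 in both muscles of each animal, by days of training (open circles contralateral, filled circles trained, lines join the muscles of an animal). The share is higher in the trained muscle of all 12 animals, 12.3% to 24.9% against 5.36% to 9.47%.

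Reads of these genes can be shared with near-identical copies, of which RefSeq names 16 for Hsp90aa1, 23 for Hsp90ab1, 22 for Hspd1, 33 for Hspa8 and 4 for Dnaja1. One copy of Hsp90aa1 has a row in the table, the processed pseudogene LOC680491 (chromosome 13 from 6343913 to 6347516, named Hsp90aa1-ps16 by RefSeq). Its value was 15.6 ± 4.33 (SD, n = 12) in controls and 47.1 ± 18.5, 43.9 ± 10.0, 28.2 ± 4.16 and 29.2 ± 6.07 (SD, n = 3 each) in the trained groups, and its log2 differences of 1.51, 1.46, 0.85 and 0.89 followed those of Hsp90aa1. How reads were split between the gene and this copy was not tested, and the level of Hsp90aa1 is uncertain to that extent.

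Hspa8 is the constitutive HSC70, among the most abundant chaperones of most cells. The row labelled Hspa8 (chromosome 8 from 44990014 to 44993180) held only 0.205 to 1.18 in controls. The trained muscles read 1.02, 0.753 and 0.385 after 2 days and 0.723, 0.191 and 0.772 after 10 days. They read 0.211, 0.231 and 0.363 after 20 days and 1.46, 0.630 and 0.235 after 30 days. Every muscle was thus near the pseudocount of 1, the groups overlapped at every time, and the log2 differences of 0.15, 0.00, -0.28 and 0.15 were not called (adjusted p = 0.561, 0.994, 0.284 and 0.585). By contrast a row for LOC688655, a pseudogene on chromosome 6 from 34553367 to 34555307 whose number RefSeq gives to Hspa8-ps22 (on another chromosome, 17, in GRCr8), held 65.8 ± 18.9 (SD, n = 12) in controls. In trained muscles it held 57.8 ± 10.8, 74.2 ± 18.4, 62.3 ± 11.1 and 85.8 ± 17.3 (SD, n = 3 each), and its log2 differences of -0.15, 0.20, -0.04 and 0.41 were not called either (adjusted p = 0.648, 0.547, 0.927 and 0.189). Whether reads of Hspa8 were counted under LOC688655 was not tested.

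The HSP110 genes were not called at any time. Hspa4 (chromosome 10 from 38601624 to 38642398) was the steadiest gene of the group, at 36.8 ± 2.26 (SD, n = 12) in controls and 39.3 ± 2.09, 37.8 ± 2.46, 36.8 ± 5.52 and 37.8 ± 1.48 (SD, n = 3 each) in the trained groups. Its log2 differences lay between -0.01 and 0.09 with standard errors of 0.08 (adjusted p = 0.423 to 0.960). Hsph1, the heat-inducible HSP105 (chromosome 12 from 6322668 to 6341903), stood at 28.5 ± 3.39 in controls. Its trained values ran from 23.01 to 38.9, with the highest in the 2-day muscle that was also highest for Dnajb1, Dnaja1 and Hsp90aa1. The differences were 0.13, 0.02, -0.13 and -0.09 with standard errors of 0.12 (adjusted p = 0.417, 0.906, 0.486 and 0.645).

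Hspd1 (chromosome 9 from 61680530 to 61690957), the HSP60 that folds proteins imported into the mitochondrial matrix, ran from 68.1 to 98.7 in controls with a median of 86.4. The trained muscles read 73.4, 70.1 and 71.2 after 2 days and 70.1, 67.1 and 70.1 after 10 days. They read 89.9, 61.9 and 81.0 after 20 days and 80.8, 96.8 and 84.2 after 30 days. The early trained muscles lay at the low end of the control range and below the own contralateral muscle in 3 of 3 animals at 2 and at 10 days. The 30-day muscles lay above it in 3 of 3, as did those of 22.4% of all tested genes. The share of all genes lower in 3 of 3 animals was not computed. The log2 differences were -0.23, -0.28, -0.13 and 0.05 (standard error 0.11, adjusted p = 0.122, 0.0601, 0.441 and 0.813). With animal as a block the difference at 10 days was -0.39 (adjusted p = 0.0324), so that 1 of 9 genes was then lower. The same call was reached in the unblocked fit without control replicate 2 of 20 days (-0.30, adjusted p = 0.0470) or without control replicate 1 (-0.30, 0.0451) or 3 (-0.31, 0.0328) of 30 days.

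Among the 4 trained groups, 2 of 9 genes differed by a limma F test, Dnajb1 (adjusted p = 0.0219) and Dnajb5 (adjusted p = 0.0417), where 12% of all genes did. Both were lower at 30 than at 2 days, as were 7.91% of all genes (15% differed in either direction). The log2 difference between these times was -1.65 for Dnajb1 (standard error 0.37, adjusted p = 0.00396) and -0.68 for Dnajb5 (standard error 0.19, adjusted p = 0.0191). The contralateral muscles were also lower for Dnajb5, at 60.8 ± 6.49 at 30 days against 79.3 ± 10.0 at 2 days (SD, n = 3 each). The log2 difference between 30 and 2 days in the trained muscles is given here for 2 further genes. For Hsp90aa1 it was -0.73 (adjusted p = 0.0917), and for Dnaja1 it was -0.37 (adjusted p = 0.384). No gene passed for 10 or 20 minus 2 days (1.93% and 8.05% of all genes, either direction), where at an unadjusted p under 0.05 Dnajb1 (-0.89) and Hsp90ab1 (-0.28) passed at 10 days and Dnajb1 (-1.17), Dnajb5 (-0.61) and Hsp90aa1 (-0.78) at 20 days. With a block for the animal, so that each trained muscle was set against its own control, the F test called none of the 9 genes, although Hspd1, Hsp90aa1, Dnaja1 and Dnajb1 had an unadjusted p under 0.05. In that fit 30 minus 2 days was -1.58 for Dnajb1 (adjusted p = 0.106) and -0.30 for Dnajb5 (adjusted p = 0.420), and -0.99 for Hsp90aa1 (adjusted p = 0.0445), which alone passed.

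Single muscles decided several of these calls. For Dnajb1 the F test was lost without trained replicate 1 (adjusted p = 0.0807) or 2 (0.159) of 2 days or replicate 3 of 30 days (0.0682), while its fall from 2 to 30 days was called whichever 1 library was left out. For Dnajb5 the F test was lost without any 1 of 10 libraries: trained replicates 1, 2 and 3 (0.0508, 0.125 and 0.119) and control replicate 3 (0.0518) of 2 days, trained replicates 1 and 2 (0.0553 and 0.05002) of 10 days, 1 and 3 (0.0684 and 0.0657) of 20 days, and 1 and 3 (0.0572 and 0.106) of 30 days. Its fall from 2 to 30 days was lost without trained replicate 2 (0.0798) or 3 (0.0645) of 2 days or replicate 3 of 30 days (0.131). Without trained replicate 3 of 2 days, 30 minus 2 days for Hsp90aa1 was -1.02 (adjusted p = 0.0345). For 20 minus 2 days, Dnajb1 passed without trained replicate 3 of 2 days (0.00636), 2 of 10 days (0.0296) or 2 of 20 days (0.0466), and Hsp90aa1 passed without the first of these (0.0434). Dnajb5 passed there (0.0378 to 0.0474) without control replicate 2 of 2 days, trained replicates 2 or 3 or control replicate 2 of 10 days, trained replicate 2 of 20 days, or control replicate 1 (0.0447) or trained replicate 3 of 30 days.

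The contralateral muscles were themselves compared over time, since they were pooled. None of the 9 genes differed among the 4 contralateral groups by a limma F test (0.0625% of all genes did), but 3 passed unadjusted at 0.05, as did 10.7% of all genes. These were Dnaja1 (adjusted p = 0.322), Dnajb5 (adjusted p = 0.341) and Hsp90aa1 (adjusted p = 0.361). Hsp90aa1 read 64.5 to 68.5 in the 10-day contralateral muscles and 32.0 to 62.0 in the other 9. Dnaja1 read 36.8 to 40.4 in the 10-day muscles and 18.9997 to 33.0 in the others. The 10-day contralateral muscles were thus the highest 3 of 12 for both genes. Against these time-matched controls alone, in a fit with 8 groups, the 10-day differences were 1.09 for Hsp90aa1 (adjusted p = 0.00414), 0.56 for Dnaja1 (0.0863) and 0.19 for Dnajb5 (0.483), so 2 of 9 genes were called there. The contralateral means of Dnajb5 were 79.3, 86.2, 65.4 and 60.8 at 2, 10, 20 and 30 days, lower at the later times.

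**Figure D4:**
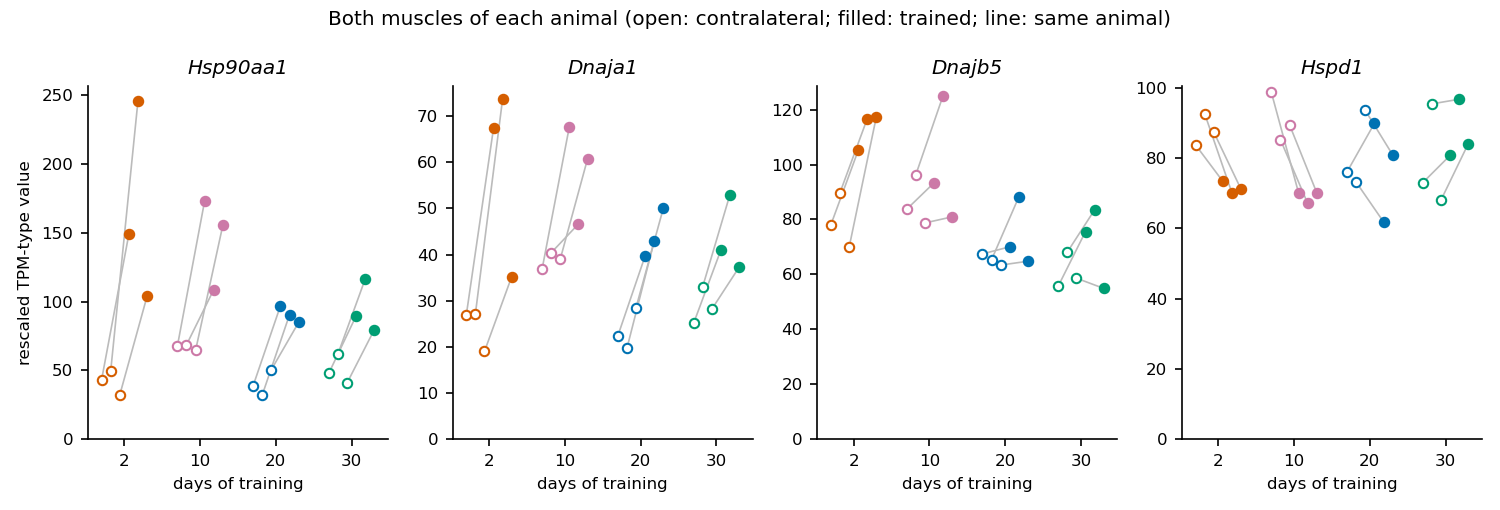
Rescaled TPM-type values of Hsp90aa1, Dnaja1, Dnajb5 and Hspd1 in both muscles of each of the 12 animals, by days of training (open circles contralateral, filled circles trained, lines join the muscles of an animal, axes from 0). The 10-day contralateral muscles are the highest open circles for Hsp90aa1 (64.5 to 68.5) and Dnaja1 (36.8 to 40.4), and the Hspd1 lines slope down at 2 and 10 days and up at 30 days.

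In control muscle the levels were ordered Hsp90ab1 (631 ± 50.1), Hspd1 (84.8 ± 10.0), Dnajb5 (72.9 ± 12.5), Hsp90aa1 (49.8 ± 13.2), Hspa4 (36.8 ± 2.26), Dnaja1 (28.8 ± 7.15), Hsph1 (28.5 ± 3.39), Dnajb1 (4.11 ± 1.05) and the Hspa8 row (0.556 ± 0.274, SD, n = 12 each). Ranges of neighbours overlapped from Hspd1 down to Hsph1, and Dnaja1 exceeded Hsph1 in 6 of 12 muscles. Hsp90ab1, Dnajb1 and Hspa8 stood apart from their neighbours. After 2 days of training the mean of Hsp90aa1 (166 ± 72.7) was second to that of Hsp90ab1 (674 ± 83.7), and that of Dnajb1 (48.8 ± 26.1, SD, n = 3 each) was above those of Hspa4 and Hsph1. Both orders held in trained replicates 1 and 2 of 2 days and not in replicate 3. There Hsp90aa1 read 104 and Dnajb5 117, and Dnajb1 (20.1) lay below Hspa4 (37.3) and Hsph1 (26.8).

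A list of 101 other genes of the same machinery, of which 98 are in the table and 96 were tested, was chosen as the 9 genes were, with results of these data known. At 2 days 18 were higher and 8 lower. At 10 days the counts were 8 and 14, at 20 days 5 and 12, and at 30 days 6 and 12. These are 18.8%, 8.33%, 5.21% and 6.25% higher, where 15.4%, 15.6%, 11.7% and 11.1% of all genes were, and 8.33%, 14.6%, 12.5% and 12.5% lower, where 13.5%, 13.3%, 9.64% and 9.46% of all genes were. With animal as a block 10 were higher at 2 days, and 9, 7 and 4 were lower at 10, 20 and 30 days. No share of all genes is given for that fit, here or for the lists below. Over all genes the block also left fewer lower, 896 instead of 1494 at 10 days and 570 instead of 1059 at 30 days. The median log2 difference of the list was 0.01, -0.10, -0.05 and -0.06. Without trained replicate 2 of 2 days, 9 were higher and 5 lower there. At 20 days 4 or 7 were lower without trained replicate 2 or 3, and at 30 days 7, 6 or 4 without trained replicate 1, 2 or 3.

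Of the 11 other HSP70 and HSP110 genes tested, 2 were higher at each time, and 0, 0, 1 and 2 were lower (1, 2, 2 and 1 higher and 0, 0, 0 and 1 lower with animal as a block). The share higher was 18.2% at each time, where 15.4%, 15.6%, 11.7% and 11.1% of all genes were. At 20 and 30 days 9.09% and 18.2% were lower, where 9.64% and 9.46% of all genes were. Hspa1b, the stress-inducible HSP70, rose most, from 8.83 ± 4.06 (SD, n = 12) in controls to 261 ± 171, 243 ± 45.0, 153 ± 90.5 and 110 ± 39.6 (SD, n = 3 each). Its lowest trained muscle read 71.0 and its highest control 16.3. Hspa1a, also on this list, has no row in the table, and whether its reads were counted under Hspa1b was not tested. The log2 differences were 4.62, 4.73, 3.93 and 3.55 (standard error 0.38, adjusted p = 2.49e-09, 1.62e-09, 5.14e-08 and 3.56e-07). Hspa1l, its neighbour and close relative expressed mainly in testis, fell at 20 and 30 days by 0.60 and 0.73 on the log2 scale (adjusted p = 0.00439 and 0.000989), and reads may be split between such paralogues. Hspa2, a further HSP70 with a role in germ cells, rose from 2.25 in controls to 4.68, 5.54 and 3.65 at 10, 20 and 30 days (log2 differences 0.81, 1.01 and 0.52, adjusted p = 9.34e-06, 7.66e-07 and 0.00222, the last 0.0728 with the block). It met the mean of 5 set for naming a gene only through the 20-day trained group.

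Of the 38 other DnaJ genes, 7, 2, 2 and 2 were higher and 3, 8, 8 and 7 lower (4, 2, 2 and 2 higher and 3, 5, 6 and 3 lower with animal as a block). The shares higher were 18.4%, 5.26%, 5.26% and 5.26%, where 15.4%, 15.6%, 11.7% and 11.1% of all genes were. The shares lower were 7.89%, 21.1%, 21.1% and 18.4%, where 13.5%, 13.3%, 9.64% and 9.46% of all genes were. Dnajb4, a close relative of Dnajb1, rose at all 4 times, by log2 differences of 0.99, 1.05, 0.50 and 0.63 (adjusted p = 1.37e-06, 5.39e-07, 0.0039 and 0.000571). Dnaja4, a relative of Dnaja1, likewise rose at all 4 times, by 0.54, 0.90, 0.53 and 0.61 (adjusted p = 0.000607, 1.15e-06, 0.00109 and 0.000300). Dnajc27 fell by 0.57, 0.76, 0.51 and 0.39 at the 4 times (adjusted p = 0.000921, 4.15e-05, 0.00338 and 0.0249). Dnajc28 fell by 0.73, 0.53 and 0.48 at 2, 10 and 20 days (adjusted p = 0.000300, 0.0051 and 0.0147). Dnajc3, an inhibitor of eIF2 alpha kinases in the endoplasmic reticulum, fell by 0.51, 0.51 and 0.36 at 10, 20 and 30 days (adjusted p = 0.000439, 0.000663 and 0.0133). Dnajc5, the synaptic vesicle chaperone, fell by 0.49 and 0.48 at 20 and 30 days (adjusted p = 0.0351 and 0.0399), and Dnajc21, a ribosome biogenesis factor, by 0.56, 0.43 and 0.47 at 10, 20 and 30 days (adjusted p = 0.00151, 0.017 and 0.0094). With animal as a block the falls of Dnajc27 at 30 days (adjusted p = 0.0647), Dnajc28 at 10 and 20 days (0.0768 and 0.0536), Dnajc5 at 30 days (0.0891), Dnajc21 at 20 and 30 days (0.174 and 0.108) and Hspa1l at 20 days (0.0536) were not called.

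Over all genes 15.4%, 15.6%, 11.7% and 11.1% were higher and 13.5%, 13.3%, 9.64% and 9.46% lower at the 4 times, beside which the counts of the short lists below stand. No such share is given for the fit with a block. Of 12 HSP70 cochaperones 2, 1, 1 and 1 were higher and 0, 1, 0 and 0 lower (the same counts higher and none lower with the block). Bag3, which links HSP70 to the autophagy of damaged filament proteins at the Z-disc, rose from 57.0 ± 6.37 (SD, n = 12) to 149 ± 43.9, 138 ± 10.7 and 99.7 ± 24.02 (SD, n = 3 each) at 2, 10 and 20 days and to 85.7 at 30 days, log2 differences of 1.34, 1.26, 0.78 and 0.57 (adjusted p = 2.18e-07, 4.93e-07, 0.000366 and 0.00652). Of 9 chaperonin genes 3, 1, 0 and 0 were higher and 0, 0, 1 and 0 lower (1, 1, 0 and 0 higher and none lower with the block). Cct3, a subunit of the cytosolic chaperonin that folds actin and tubulin, rose from 57.6 ± 4.43 to 119 ± 33.3 at 2 days and 118 at 10 days (log2 differences 1.00 and 0.99, adjusted p = 1.26e-05 and 1.12e-05). Of the HSP90 genes of the organelles, Hsp90b1 (endoplasmic reticulum) was higher at 2 days (0.34, adjusted p = 0.00988), and Trap1 (mitochondria) was lower at 2 and 10 days (-0.43 and -0.28, adjusted p = 0.000297 and 0.0105). With a block for the animal, Hsp90b1 at 2 days and Trap1 at 10 days were not called (adjusted p = 0.0527 and 0.127). Of 20 HSP90 cochaperones 2, 1, 0 and 0 were higher and 3, 4, 2 and 3 lower (1, 1, 1 and 0 higher and 3, 4, 1 and 0 lower with the block). Fkbp4, an immunophilin of steroid receptor complexes, fell from 81.2 ± 4.86 to 51.7 ± 7.07 at 2 days and 50.9 ± 6.80 at 10 days (log2 differences -0.65 and -0.67, adjusted p = 2.11e-05 and 1.15e-05), and by 0.30 at 20 days (adjusted p = 0.0269, with the block 0.148). Its relative Fkbp5, a glucocorticoid target, fell by 0.59 at 10 days (adjusted p = 0.0463). The 3 heat shock factor genes Hsf1, Hsf2 and Hsf4 and Hsbp1, which encodes a protein that binds such factors, were tested. Hsf2 was higher at 2, 10 and 30 days (0.78, 0.50 and 0.35, the last not called with animal as a block, adjusted p = 0.0863), and Hsf1 and Hsf4 were not called at any time. Hsbp1 was lower at 2 days (-0.31, adjusted p = 0.0415, with the block 0.104). Hsp90b1, Trap1, Hsbp1 and the 3 factors were named after their values were seen.

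**Figure D5:**
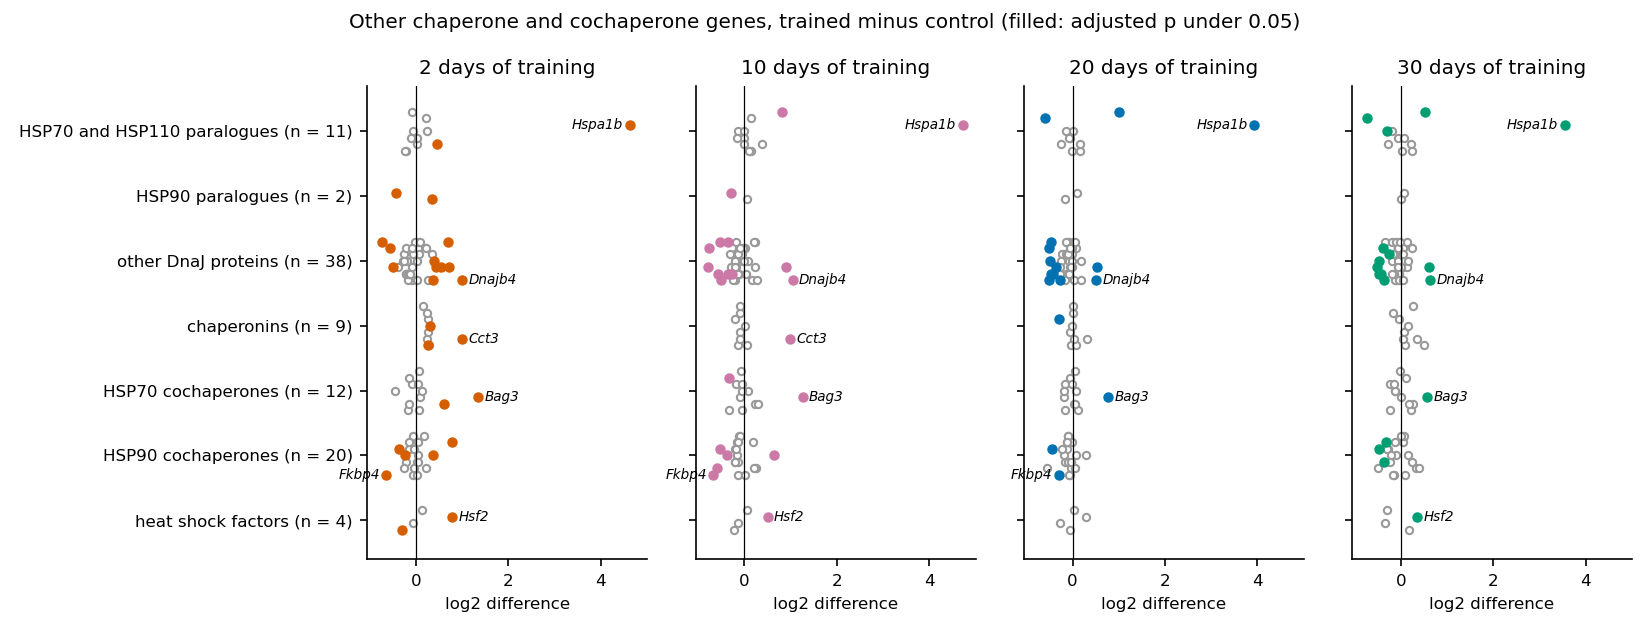
Log2 difference between trained and control muscles for 96 other chaperone and cochaperone genes, by list (rows, with the number tested) and by days of training (panels). Filled circles have an adjusted p under 0.05, and Hspa1b, with differences of 3.55 to 4.73, lies far to the right of all others.

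Genes of like pattern were sought for the 3 members with the largest mean absolute difference within animals, among 3767 genes outside the lists, by the root mean square distance between the 12 within-animal log2 differences. For Dnajb1 (mean absolute difference 2.21) they were Col3a1 (distance 0.67), Midn (0.74) and Fhl1 (0.79), where the median gene lay at 2.46. For Hsp90aa1 (mean 1.27) they were the pseudogene LOC680491 (0.16), RT1-Bb (0.32) and Anxa5 (0.33), with a median of 1.44. For Dnaja1 (mean 0.81) they were AABR07026112.1 (0.28), Trim63 (0.29) and Arpc1b (0.31), with a median of 0.99. The candidates had a mean of at least 10 over all 24 muscles, and RT1-Bb, Anxa5, AABR07026112.1 and Arpc1b had control means below that (6.46, 9.54, 7.60 and 6.88), so they entered only through their trained muscles. Col3a1 is 1 of the 5 fibroblast markers. Its log2 differences of 1.81, 2.64, 2.35 and 1.62 at the 4 times were highest at 10 days, whereas those of Dnajb1 fell from 3.14 to 1.49. A small distance thus need not mean the same course over time. Each distance is a description over 12 animals, whose muscle pairs share the scaling of their libraries.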

How the data were processed

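RNA of 24 muscles was sequenced by the authors as poly-A selected, strand-specific paired-end libraries. Per the labels and the study's methods, reads were aligned with STAR to rn6 and quantified in Partek on Ensembl transcripts, and DESeq2 is named among the tools. The deposited transcript values behave as TPM: each sample summed to 634431 over 20027 transcripts. The depth of a library cannot be read from them, and no counting interval is given. The paper's methods state a minimum number of reads per sample. A gene-level table of scaled signal values deposited by the authors (4635 genes, no Hspa8 entry) served as an alternative, chosen after seeing the data, as were time-matched controls for the contrasts among trained groups. A table of the authors' own p-values and ratios was not used.

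Median-of-ratios factors from 16230 transcripts above 0 in all samples were used to rescale the samples, and values were summed per gene symbol (15273 genes). The 11196 genes that reached 1 in 3 or more samples were fitted with limma 3.58.1 in R 4.3.3 on log2(value + 1), with 5 groups (12 controls and 4 trained groups of 3), and adjusted by Benjamini-Hochberg at 0.05. The steps were tested on simulated data with independent samples and changes only at 2 days, in genes that were not low in controls. The pairing of muscles and low genes were therefore not covered. Tables and figures used Python 3.11.15, numpy 2.4.6, pandas 2.3.3 and matplotlib 3.10.9.

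Left and right muscles came from the same animal by the labels, so a fit with animal as a block was an alternative. Deviations from the group means correlated within animals with a median of 0.174 (0.0277 to 0.343, 12 animals) and between animals with -0.00964. None of 276 pairs of libraries held identical values. The 9 genes, the other lists and the tests were chosen with earlier results of these data known. Besides the 9 genes, the text names up to 3 genes of the other lists with the largest rise and fall per time, among called genes with a mean of at least 5 in the control or trained group, and the 3 genes most like each of 3 members, among genes with a mean of at least 10 over all samples. Alternatives were the values as deposited, a pseudocount of 0.1, no filter, a mean of at least 10, a threshold of 0.01, the block, time-matched controls, an intensity trend, the most abundant transcript and leaving out each library.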

Additional observations from a re-analysis of the deposited data

Results flagged for a closer look

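Hspd1 was not called at 2 or at 30 days. Within animals its trained muscle was below the contralateral one in 3 of 3 animals at 2 days and above it in 3 of 3 at 30 days, a difference between the times of 0.45 on the log2 scale that did not pass in limma with animal as a block (adjusted p = 0.159). Between 10 and 30 days the animals likewise lay on opposite sides, with a difference of 0.55 that was not tested. Of all tested genes 22.4% were higher in 3 of 3 animals at 30 days. Neither the share lower in 3 of 3 animals nor the share on opposite sides at different times was computed.

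The rise of Hsp90aa1 within animals was smaller at 30 than at 2 days, by -0.99 on the log2 scale (limma with animal as a block, adjusted p = 0.0445), with the trained muscle higher in 3 of 3 animals at both times. So were 26.5% of all tested genes at 2 days and 22.4% at 30 days. Without the block the difference between the trained groups was -0.73 (adjusted p = 0.0917). Without trained replicate 3 of 2 days it was -1.02 (adjusted p = 0.0345).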

How the results depend on the processing

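Of the log2 differences of the 9 genes under alternatives other than leaving out a library, 325 kept direction and side of the threshold, 12 lost and 4 gained a call and 11 changed sign. With a library left out the counts were 499, 14, 3 and 18. No difference that changed sign was called in either fit. The causes of these changes were not tested.

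Changes of sign were seen for Hspa8 at 10 days (-0.030 with a pseudocount of 0.1, -0.12 with animal as a block and with time-matched controls), Hsph1 at 10 days (-0.12 with the block and with time-matched controls), Dnajb5 at 30 days (0.21 with both of these and 0.0060 in the gene-level table), Hspa4 at 20 days (0.033 in the gene-level table) and, on the values as deposited, Hspa4 (-0.18) and Hspd1 (-0.17) at 30 days. With a library left out, Hspa8 ran from -0.10 to 0.19 at 10 days, Hspa4 from -0.10 to 0.11 at 20 days, Hspd1 from -0.25 to 0.019 at 20 and -0.029 to 0.10 at 30 days, Hsph1 from -0.025 to 0.24 at 2, -0.014 to 0.052 at 10 and -0.22 to 0.011 at 30 days, and Dnajb5 from -0.094 to 0.13 at 20 and -0.16 to 0.14 at 30 days.

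Dnaja1 at 30 days was also lost with a pseudocount of 0.1 (adjusted p = 0.0511), without a filter (0.0550) and with time-matched controls (0.106), Dnajb5 at 10 days for the most abundant transcript (0.0539), and Hspd1 at 10 days was also called with a mean of at least 10 (0.0435) or an intensity trend (0.0499), all by limma. With animal as a block the calls of Dnajb5 and Hspd1 at 10 days changed, and no other call of the 9 genes against controls did.

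Of the 9 genes, 2 instead of 4 were higher at 10 days with time-matched controls. One was lower at 10 days with a mean of at least 10, the block or an intensity trend (1 in place of 0), and 1 at 30 days on the values as deposited. Among the trained groups the F test called 4 genes on the values as deposited, 1 with a pseudocount of 0.1, no filter or the most abundant transcript, and 0 with the block, time-matched controls or a threshold of 0.01. For 20 minus 2 days 2 genes were called on the values as deposited, with a mean of at least 10, an intensity trend or the gene-level table. For 30 minus 2 days 5 were called as deposited, 3 for the most abundant transcript, 1 with the block or a threshold of 0.01 and 0 with time-matched controls. With a library left out the counts of higher genes ran from 4 to 4, 3 to 4, 2 to 3 and 1 to 3, of lower genes at 10 days from 0 to 1, of the F test from 0 to 2, of 20 minus 2 days from 0 to 2 and of 30 minus 2 days from 1 to 2.

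Of the other chaperone genes, 10 were higher at 2 days with the block and 5 lower as deposited, with time-matched controls or at 0.01. At 10 days 7 were lower as deposited, 9 with the block or at 0.01 and 8 in the gene-level table. At 20 days 7 were lower with the block and 5 with time-matched controls or at 0.01. At 30 days 3 were higher with time-matched controls, and 37 were lower as deposited, 4 with the block or time-matched controls and 5 at 0.01. With a library left out 9 to 20 were higher and 5 to 9 lower at 2 days, 4 to 12 lower at 20 and 4 to 13 at 30 days.

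Over all genes, 1728 higher and 1507 lower at 2 days became 692 and 962 with a mean of at least 10, 916 and 863 in the gene-level table and 1134 and 824 at 0.01, and 731 or 990 were lower as deposited or with time-matched controls. At 10 days 1746 and 1494 became 514 and 906 (mean of at least 10) and 760 and 607 (gene-level table), with 682, 896, 805 and 814 lower as deposited, with the block, with time-matched controls and at 0.01. At 20 days 1314 and 1079 became 400 and 664 and 584 and 477 in the same 2 settings, with 655 and 534 lower with time-matched controls and at 0.01. At 30 days 1245 and 1059 became 647 and 2590 as deposited, 524 and 631 with a mean of at least 10, 807 and 570 with the block, 649 and 472 with time-matched controls, 694 and 601 in the gene-level table and 740 and 556 at 0.01.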
